A study of Homo sapiens with 15 samples.

Results

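The alpha-arrestins TXNIP, ARRDC1, ARRDC2, ARRDC3 and ARRDC4 were followed over all 15 arrays of a study of T cell exosomes and endothelial cells. All 5 were found among the 18417 genes of the array with a symbol of their own, each through 1 probeset. The family was chosen by the differences of TXNIP and ARRDC3 between exosome-treated and untreated HUVEC, so for these 5 genes every comparison with untreated HUVEC is given below as a description without a test. RNA was hybridised to Affymetrix whole-transcript gene arrays in 5 groups of 3. HUVEC, endothelial cells of the human umbilical vein, were kept for 6 h in EGM2 medium with exosomes of JinB8 cells (JINB8), with exosomes of Jurkat cells (JK), or were untreated. The other groups held RNA of JINB8 exosomes and RNA of JK exosomes. Jurkat is a human T cell leukaemia line, and JinB8 is its mutant deficient in CD47, through which cells bind thrombospondin-1 and signal to phagocytes. Both lines grew in medium with human AB serum, which was lowered before the vesicles were collected. The vesicles were precipitated from concentrated medium with a commercial reagent, which collects whatever the polymer brings down, and the pellet was taken up in water. Each vesicle type came from 1 line, and the labels used here do not describe a mock pellet for the untreated cells. Nothing in them tells whether the 3 replicates of a group came from separate cultures, and the p-values therefore reflect a spread among samples that could be technical. In cultures measured in bulk, fewer cells of a type and less RNA per cell cannot be told apart.

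Alpha-arrestins are adaptor proteins with an arrestin fold whose PPxY motifs bind NEDD4-family ubiquitin ligases and bring them to membrane proteins, which are then ubiquitinated and taken from the cell surface. TXNIP binds thioredoxin and promotes the endocytosis of glucose transporters, and its gene is a classic target of MondoA and ChREBP, transcription factors that respond to glucose metabolites. ARRDC1 recruits TSG101 to the plasma membrane and drives the budding of small vesicles there, ARRDC3 regulates the trafficking of beta-adrenergic and protease-activated receptors, and ARRDC4 is a MondoA target that lowers glucose uptake, while less is known of ARRDC2.

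The promoters of the 3 genes that stood higher in treated HUVEC are shown because they carry different letters of the elements known from TXNIP. The windows run from 250 bases before to 50 bases after a transcription start, were read from RefSeq (GRCh38.p14), and are printed along the gene's own strand. Capitals mark the matches to an E-box (CACGTG), to paired half-sites CNCGNG separated by 5 bases, and to the forkhead letters TGTTTAC on either strand. The paired half-sites are a loose pattern for the carbohydrate response element, and a match need not have its form.
TXNIP, chr1:145996530-145996829, minus strand: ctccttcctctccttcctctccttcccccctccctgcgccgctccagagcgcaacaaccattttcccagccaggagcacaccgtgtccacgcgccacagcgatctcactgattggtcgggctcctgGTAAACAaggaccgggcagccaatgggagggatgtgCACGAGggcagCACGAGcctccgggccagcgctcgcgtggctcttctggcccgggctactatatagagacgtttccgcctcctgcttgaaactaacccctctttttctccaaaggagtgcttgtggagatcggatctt
ARRDC3, chr5:91380048-91380347, minus strand: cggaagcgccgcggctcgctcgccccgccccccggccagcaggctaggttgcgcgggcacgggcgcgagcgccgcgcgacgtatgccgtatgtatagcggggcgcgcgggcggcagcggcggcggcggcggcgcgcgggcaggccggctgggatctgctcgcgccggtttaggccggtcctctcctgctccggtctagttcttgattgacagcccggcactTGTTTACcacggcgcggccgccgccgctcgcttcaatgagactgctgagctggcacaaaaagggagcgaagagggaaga
ARRDC4, chr15:97960453-97960752, plus strand: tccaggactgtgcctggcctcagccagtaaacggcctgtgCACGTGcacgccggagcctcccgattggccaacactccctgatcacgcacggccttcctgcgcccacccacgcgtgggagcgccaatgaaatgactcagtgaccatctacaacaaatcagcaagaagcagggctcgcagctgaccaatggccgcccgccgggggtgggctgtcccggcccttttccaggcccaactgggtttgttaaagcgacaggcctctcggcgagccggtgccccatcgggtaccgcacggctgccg

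The TXNIP window held the paired half-sites from base -88 to base -72 and the forkhead letters, in reverse complement, from base -124 to base -118. The ARRDC4 window held an E-box from base -210 to base -205 and neither of the other elements. The ARRDC3 window shown is that of its second listed start and held the forkhead letters from base -29 to base -23, while the window of its first listed start held none of the 3 elements. The second listed TXNIP window and the only ARRDC1 window held none of them either. ARRDC2 carried paired half-sites from base -24 to base -8 in its first window and none of the 3 elements in its second. Among all 35116 promoter windows, 7.26% held the E-box, 2.22% the paired half-sites and 3.42% the forkhead letters. CCAAT, searched on both strands, was present in 5 of the 8 windows of the family, against 34.6% of all windows. Counted by gene, all 5 held it in at least 1 window, against 39.7% of all genes. The motifs and the windows shown were chosen after the sequences were seen, no match overlapped another, and a match of letters is not a binding site.

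The deposited levels of the groups were not alike. Array medians averaged 5.12 ± 0.01 in JINB8 and 5.11 ± 0.03 in JK exosome RNA (log2, SD, n = 3 each). They averaged 5.11 ± 0.02 in HUVEC with JINB8 exosomes and 5.14 ± 0.03 in HUVEC with JK exosomes, against 6.97 ± 0.06 in untreated HUVEC (n = 3 each). Values across probesets had an SD of 1.49 to 1.55 in the exosome RNA arrays and 2.18 to 2.26 in the HUVEC arrays. Comparisons with untreated HUVEC therefore use values quantile-normalized over the 9 HUVEC arrays, and in them batch and treatment cannot be told apart. Of the 8 endothelial markers, 3 lay above the array median in each exosome RNA group and 8 in each HUVEC group. Of the 8 T cell markers, 5 lay above it in each exosome RNA group and 0 in each HUVEC group. CD47 RNA did not separate the vesicles by their label. It averaged 4.73 ± 0.19 in JINB8 and 4.71 ± 0.02 in JK exosome RNA (deposited log2, SD, n = 3 each), a log2 difference of 0.02 ± 0.09 (SE, limma adjusted p = 0.988), so this probeset gives no check of the mutant.

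Replicate 3 of both exosome-treated groups went against its label. After subtraction of each gene's mean over the 6 treated arrays, JK replicates 1 and 2 correlated at 0.40 across genes and JINB8 replicates 1 and 2 at 0.26. JINB8 replicate 3 correlated with JINB8 replicates 1 and 2 at -0.31 and -0.11, and JK replicate 3 with JK replicates 1 and 2 at -0.35 and -0.33. With the arrays of the other label it correlated, for JINB8 replicate 3, at 0.01 and -0.03 with JK replicates 1 and 2, and for JK replicate 3, at 0.07 and -0.05 with JINB8 replicates 1 and 2. JINB8 replicate 3 and JK replicate 3 correlated with each other at -0.43. Deviations from a shared mean correlate negatively on average by construction, genes are not independent replicates, and these values are a description. The labels were kept, and the members' log2 values that rest on these 2 arrays are also given without them, a setting chosen after the data were seen.

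ARRDC3 and TXNIP were far higher in exosome-treated than in untreated HUVEC, ARRDC4 was higher by less than 2-fold, and ARRDC1 and ARRDC2 lay near their untreated level. ARRDC3 had quantile-normalized log2 values of 11.13, 11.16 and 10.86 with JINB8 exosomes and 10.79, 10.82 and 11.12 with JK exosomes, against 8.33, 8.11 and 8.06 in untreated HUVEC. Each of the 6 treated arrays stood above each untreated array by a wide margin. The log2 fold change was 2.88 ± 0.12 with JINB8 exosomes (SE), a 7.37-fold higher level, and 2.74 ± 0.12 with JK exosomes, a 6.69-fold higher level. By that value ARRDC3 ranked at place 6 from the top of 18417 genes with JINB8 exosomes and at place 4 with JK exosomes. The comparisons share the untreated arrays.

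TXNIP had values of 9.37, 9.49 and 10.41 with JINB8 exosomes and 10.78, 10.74 and 9.59 with JK exosomes, against 8.03, 7.73 and 7.64 in untreated HUVEC. Treated and untreated arrays again did not overlap, and the spread within each treated group was wide, with replicate 3 apart from the other two. The log2 fold change was 1.96 ± 0.32 with JINB8 exosomes (SE), or 3.88-fold, and 2.57 ± 0.32 with JK exosomes, or 5.95-fold. TXNIP stood at place 37 and place 9 from the top. Without replicate 3 of both treated groups the log2 fold changes were 1.61 with JINB8 and 2.93 with JK exosomes for TXNIP, and 2.95 and 2.61 for ARRDC3. In the same setting they were 0.79 and 0.78 for ARRDC4, 0.22 and 0.10 for ARRDC1 and -0.09 and 0.08 for ARRDC2.

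ARRDC4 had values of 6.54, 6.32 and 6.45 with JINB8 exosomes and 6.34, 6.48 and 6.44 with JK exosomes, against 5.53, 5.92 and 5.42 in untreated HUVEC. The treated arrays lay close together and all above the untreated ones. Its log2 fold change was 0.81 ± 0.12 with JINB8 exosomes (SE) and 0.79 ± 0.12 with JK exosomes, or 1.75-fold and 1.73-fold, and its places were 879 and 821. ARRDC4 fell with both exosome types as deposited, by 1.08 and 1.05 on the log2 scale, where the median gene had log2 changes of -1.71 and -1.68.

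ARRDC1 had values of 7.44, 7.60 and 7.43 with JINB8 exosomes and 7.43, 7.36 and 7.24 with JK exosomes, against 7.42, 7.25 and 7.21 in untreated HUVEC. The JINB8 arrays lay just above the untreated ones, and the JK arrays overlapped them. Its log2 fold change was 0.19 ± 0.09 with JINB8 exosomes and 0.05 ± 0.09 with JK exosomes (SE). ARRDC2 had values of 7.07, 7.11 and 7.04 with JINB8 exosomes and 7.16, 7.36 and 7.07 with JK exosomes, against 7.17, 7.24 and 7.13 in untreated HUVEC, with log2 fold changes of -0.11 ± 0.09 and 0.02 ± 0.09 (SE). Its JINB8 arrays lay just below the untreated ones and its JK arrays overlapped them.

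Treated and untreated arrays were free of overlap for all 5 members with JINB8 exosomes, as for 57.7% of all genes, and for 3 members with JK exosomes, as for 56.1% of all genes. Of all genes, 49.3% passed limma's test with JINB8 exosomes and 48.6% with JK exosomes (Benjamini-Hochberg adjusted p under 0.05). Since these comparisons chose the family, nothing is read from the members' count. As deposited, 70 genes lay above their untreated level with JINB8 exosomes and 59 with JK exosomes, and TXNIP and ARRDC3 were among them in both. On that scale the log2 fold change of ARRDC3 was 1.45 and 1.29 and that of TXNIP 0.44 and 1.06.

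**Figure D1:**
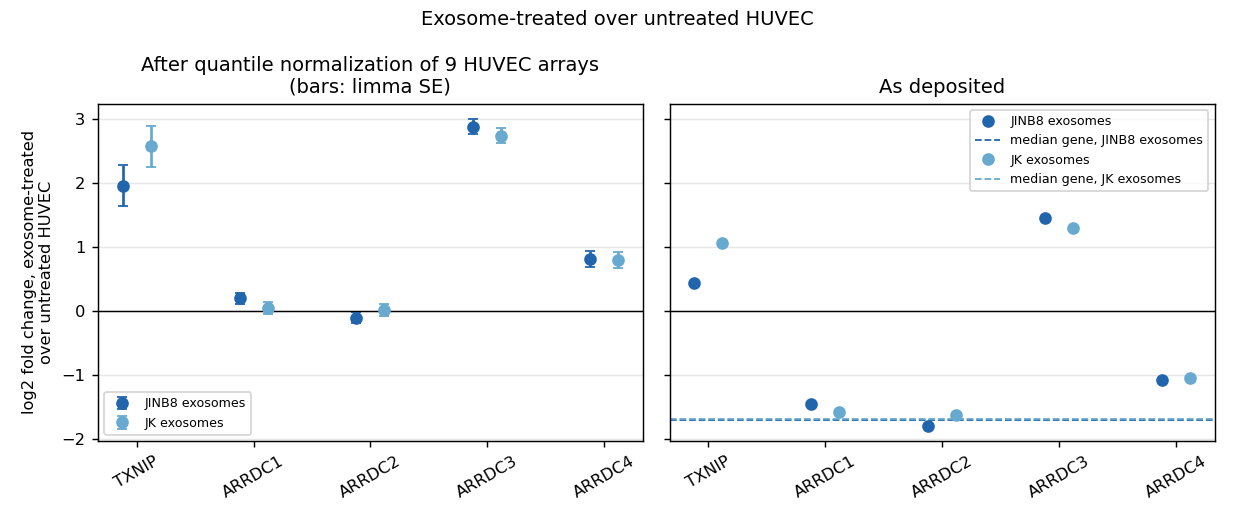
Log2 fold change of each alpha-arrestin in HUVEC with JINB8 or JK exosomes over untreated HUVEC, after quantile normalization of the 9 HUVEC arrays (left, bars are limma standard errors) and as deposited (right, dashed lines are the median of 18417 genes). TXNIP and ARRDC3 lie above 0 in both panels, whereas ARRDC4 lies above 0 on the left and between 0 and the median gene on the right.

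T cell markers stayed low in the treated cells. With JINB8 exosomes 0 of 8 rose and 3 fell, and with JK exosomes 1 rose and 3 fell (limma on the quantile-normalized values, adjusted p under 0.05). Their median position in the array, as the percent of genes with lower signal, was 10.2% to 13.9% with JINB8 exosomes and 10.9% to 14.3% with JK exosomes, against 15.6% to 16.7% in untreated HUVEC. Among endothelial markers 2 of 8 rose and 2 fell with JINB8 exosomes, and 2 rose and 1 fell with JK exosomes. Fibroblast and mural markers had 1 rise and 1 fall among 7 in each comparison, and 2 of 5 monocyte and macrophage markers fell with JINB8 and 4 of 5 with JK exosomes. The part of the monocyte marker changes in the alpha-arrestin values was not tested.

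Among the 6 treated arrays TXNIP and ARRDC3 varied in opposite directions. In JINB8 replicate 3 and JK replicates 1 and 2, TXNIP lay between 10.41 and 10.78 and ARRDC3 between 10.79 and 10.86. In JINB8 replicates 1 and 2 and JK replicate 3, TXNIP lay between 9.37 and 9.59 and ARRDC3 between 11.12 and 11.16. The arrays with the higher TXNIP signal were thus the arrays with the lower ARRDC3 signal, with a gap for each gene, and both sets mixed the labels. The first principal component of all genes over these 6 arrays, with 43.4% of their variance, parted them in the same way. This is a description of arrays set apart by the values shown, with no test.

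**Figure D2:**
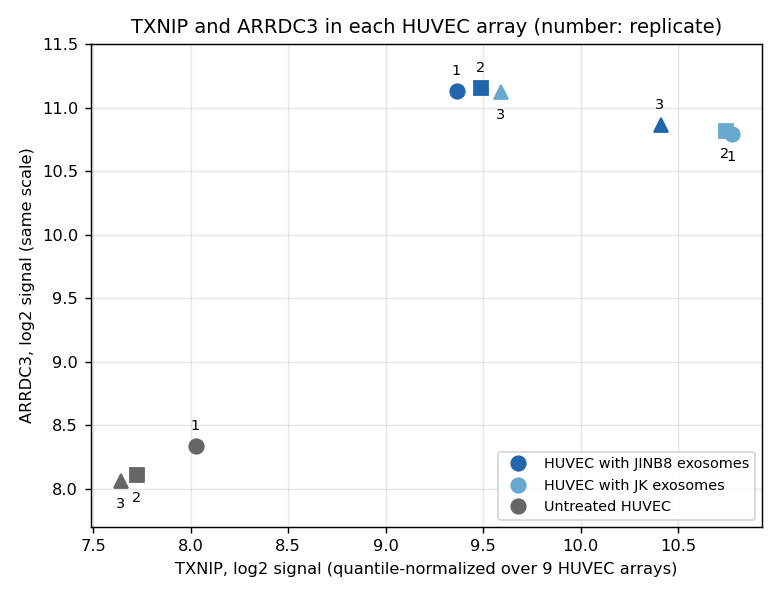
TXNIP (horizontal) against ARRDC3 (vertical) as quantile-normalized log2 signal in the 9 HUVEC arrays, 1 point per array with its replicate number. The treated arrays form a set with TXNIP at 10.41 or more and a set with TXNIP at 9.59 or less, each holding both labels, and the untreated arrays lie below 8.4 on both axes.

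HUVEC with JINB8 and with JK exosomes were compared directly, and none of the 5 alpha-arrestins passed the test. With 1 line per vesicle type, the lack of CD47 cannot be told apart from other differences between the lines. The comparisons of JINB8 with JK exosomes were not used in choosing the family and take the deposited values, whose array medians were alike. TXNIP had deposited log2 values of 8.89, 9.04 and 9.96 with JINB8 exosomes and 10.37, 10.28 and 9.12 with JK exosomes. The groups overlapped through replicate 3 of each. The log2 difference, JINB8 minus JK, was -0.63 ± 0.32 (SE, 95% interval -1.31 to 0.06, limma adjusted p = 0.584), with an interval that includes a level 2-fold lower with JINB8 exosomes. On leaving out 1 array at a time the difference ran from -1.03 without JK replicate 3 to -0.40 without JK replicate 1, and none of these values passed (limma adjusted p of 0.128 to 0.989). Without replicate 3 of both groups it was -1.36 and passed. The arrays left out in that fit were picked after their profiles were seen, so its p-value is not given as evidence.

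ARRDC3 had deposited values of 10.71, 10.78 and 10.45 with JINB8 exosomes and 10.39, 10.36 and 10.72 with JK exosomes, which overlapped. The log2 difference was 0.16 ± 0.14 (SE, 95% interval -0.14 to 0.46, limma adjusted p = 0.778), and 0.37 without replicate 3 of both groups. ARRDC1 differed by 0.13 ± 0.11 (interval -0.12 to 0.37, adjusted p = 0.778), ARRDC2 by -0.16 ± 0.10 (interval -0.38 to 0.05, adjusted p = 0.661) and ARRDC4 by -0.03 ± 0.12 (interval -0.29 to 0.23, adjusted p = 0.961, SE throughout, limma). The intervals of these 4 genes stay within 0.5 on the log2 scale. Without replicate 3 of both groups ARRDC1 differed by 0.09, ARRDC2 by -0.23 and ARRDC4 by -0.06, and none of these passed. Over all genes 0 passed, or 0%, by limma, whereas 1678 had an unadjusted p under 0.05, and 23 passed with a variance trend and robust fit. The groups of 0 of the 5 members were free of overlap, against 17.5% of all genes. An exact two-sided permutation test of 3 against 3 arrays cannot give a p below 0.1.

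In the RNA of the vesicles themselves, JINB8 and JK exosomes did not differ detectably in any alpha-arrestin. TXNIP had deposited log2 values of 6.22, 6.22 and 6.36 in JINB8 and 6.20, 6.13 and 6.30 in JK exosome RNA, a difference of 0.06 ± 0.08 (SE, 95% interval -0.11 to 0.23, limma adjusted p = 0.934). ARRDC2 had 5.51, 5.29 and 5.39 in JINB8 and 5.20, 5.32 and 5.17 in JK exosome RNA. Its ranges overlapped by a single array of each kind, and the difference was 0.17 ± 0.08 (SE, interval -0.01 to 0.35, limma adjusted p = 0.666). ARRDC3 differed by 0.05 ± 0.08, ARRDC4 by 0.05 ± 0.08 and ARRDC1 by -0.04 ± 0.09 (SE, limma adjusted p between 0.946 and 0.970). Among all genes 125 passed, or 0.679%, and the groups of 12.9% were free of overlap, against 0 of the 5 members.

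**Figure D3:**
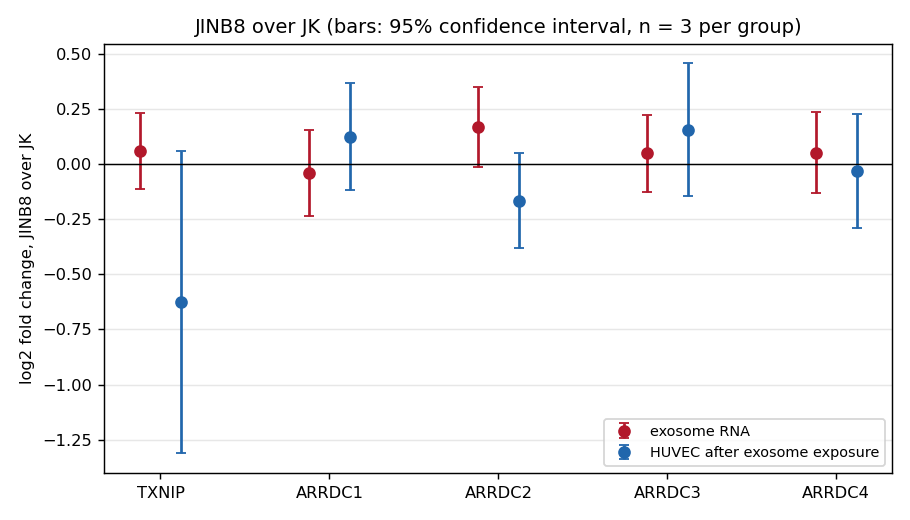
Log2 difference of each alpha-arrestin, JINB8 over JK, in exosome RNA (left of each pair of points) and in HUVEC after exposure (right), with 95% confidence intervals from limma (n = 3 per group). Every interval includes 0, and TXNIP in HUVEC has the widest, at -1.31 to 0.06.

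Whether that difference was the same in vesicle RNA and in the recipient cells was tested as an interaction. For TXNIP the JINB8 minus JK change was higher in exosome RNA than in HUVEC by 0.69 ± 0.39 (SE, limma adjusted p = 0.519), and for ARRDC2 by 0.33 ± 0.13 (SE, adjusted p = 0.297). For the other 3 genes the value lay between -0.17 and 0.08 (limma adjusted p of 0.664 or more). None of the 5 passed, where 0.787% of all genes did. On leaving out 1 array at a time the TXNIP value ran from 0.46 without JK-treated replicate 1 to 1.09 without JK-treated replicate 3, and it passed in none of these fits (limma adjusted p of 0.0584 to 0.738). Without replicate 3 of both treated groups, picked after their profiles were seen, the TXNIP value was 1.42 and passed, and ARRDC2 stood at 0.40, ARRDC3 at -0.32, ARRDC1 at -0.13 and ARRDC4 at 0.11 without passing.

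In exosome RNA all 5 alpha-arrestins had a lower mean signal than in treated HUVEC, ARRDC3 by far the most. Because exosome RNA arrays had a narrower range, the position of a gene in its own array was used to order the groups for each gene, never to rank genes against each other. ARRDC3 stood above 11.3% of genes in JINB8 and 10.1% in JK exosome RNA, above 98.8% and 98.6% in HUVEC with JINB8 and JK exosomes, and above 80.6% in untreated HUVEC. The treated groups, which overlapped, were highest, the untreated arrays came next and the vesicle groups, which overlapped, were lowest. Its deposited values were 3.64, 3.85 and 3.80 in JINB8 exosome RNA, against 10.71, 10.78 and 10.45 in HUVEC kept with them. The JK exosome RNA values of 3.70, 3.77 and 3.67 stood against 10.39, 10.36 and 10.72 in HUVEC with JK exosomes. The log2 fold change was -6.88 ± 0.11 for JINB8 and -6.77 ± 0.11 for JK (SE), given without a test because values of the treated arrays helped to choose this gene and TXNIP.

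TXNIP, in contrast, stood higher in the vesicle RNA than in untreated HUVEC by its position in the array. Its mean position was 86.1% in JINB8 and 85.2% in JK exosome RNA, 94.5% and 96.9% in HUVEC with JINB8 and JK exosomes, and 75.4% in untreated HUVEC. The treated groups overlapped each other and were highest, and the vesicle groups overlapped each other and came next. The lowest vesicle array, at 82.6%, lay above the highest untreated array, at 78.7%. The share of all genes parted in this way was not computed, and the untreated TXNIP values helped to choose the family. Against treated HUVEC, 92.7% of genes for JINB8 and 92.5% for JK exosome RNA had deposited values without overlap. As deposited the order was the reverse, with TXNIP means of 6.27 in JINB8 and 6.21 in JK exosome RNA, against 8.86 in untreated HUVEC. The median of all genes was lower too, at 5.17 to 5.22 in exosome RNA arrays and 7.41 to 7.44 in untreated arrays. The part of the narrower range of exosome RNA arrays in the higher position of TXNIP was not tested. Against treated HUVEC the deposited log2 fold change of TXNIP was -3.03 ± 0.28 for JINB8 and -3.71 ± 0.28 for JK exosome RNA (SE). After quantile normalization of the arrays fitted it was -0.84 and -1.37. The deposited fold changes without replicate 3 of both treated groups were -2.70 and -4.12 for TXNIP and -6.98 and -6.66 for ARRDC3.

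ARRDC1, ARRDC2 and ARRDC4 were lower in exosome RNA than in treated HUVEC, and each passed the test in both comparisons. ARRDC1, the member that drives vesicle budding, had 4.53, 4.52 and 4.77 in JINB8 exosome RNA, against 6.88, 7.04 and 6.88 in HUVEC with JINB8 exosomes (deposited log2). It had 4.74, 4.56 and 4.65 in JK exosome RNA, against 6.93, 6.82 and 6.68 in HUVEC with JK exosomes. It fell by 2.33 ± 0.09 on the log2 scale for JINB8 (SE, limma adjusted p = 3.23e-13) and fell by 2.16 ± 0.09 for JK (adjusted p = 8.67e-13). ARRDC2 fell by 1.10 ± 0.09 (SE, limma adjusted p = 5.02e-09) and fell by 1.43 ± 0.09 (adjusted p = 1.47e-10). ARRDC4 fell by 0.75 ± 0.09 (SE, limma adjusted p = 5.41e-07) and fell by 0.84 ± 0.09 (adjusted p = 1.49e-07). These 3 genes also passed without replicate 3 of both treated groups, at -2.35 and -2.23 for ARRDC1, -1.11 and -1.51 for ARRDC2 and -0.74 and -0.84 for ARRDC4. Of all genes, 92.5% passed for JINB8 and 92.8% for JK, and the groups of 92.7% and 92.5% did not overlap, so passing sets the family apart from nothing. The vesicle donor and the recipient cells differ in cell type, and vesicle and cell RNA cannot be told apart from that difference.

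By position, ARRDC1 averaged 31.3% in JINB8 and 32.3% in JK exosome RNA, 70.9% and 68.7% in HUVEC with JINB8 and JK exosomes, and 67.9% in untreated HUVEC. The vesicle groups overlapped each other far below the rest, and among HUVEC the JK-treated group overlapped both others. ARRDC2 averaged 57.1% in JINB8 and 51.2% in JK exosome RNA, 64.5% and 66.5% in HUVEC with JINB8 and JK exosomes, and 66.2% in untreated HUVEC. Its vesicle groups overlapped and were lowest, and the JK-treated range covered the untreated arrays and the upper end of the JINB8-treated ones. ARRDC4 averaged 45.2% in JINB8 and 43.6% in JK exosome RNA, 53.8% and 53.6% in HUVEC with JINB8 and JK exosomes, and 39.6% in untreated HUVEC. Its treated groups overlapped and were highest, and the untreated arrays overlapped both vesicle groups.

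**Figure D4:**
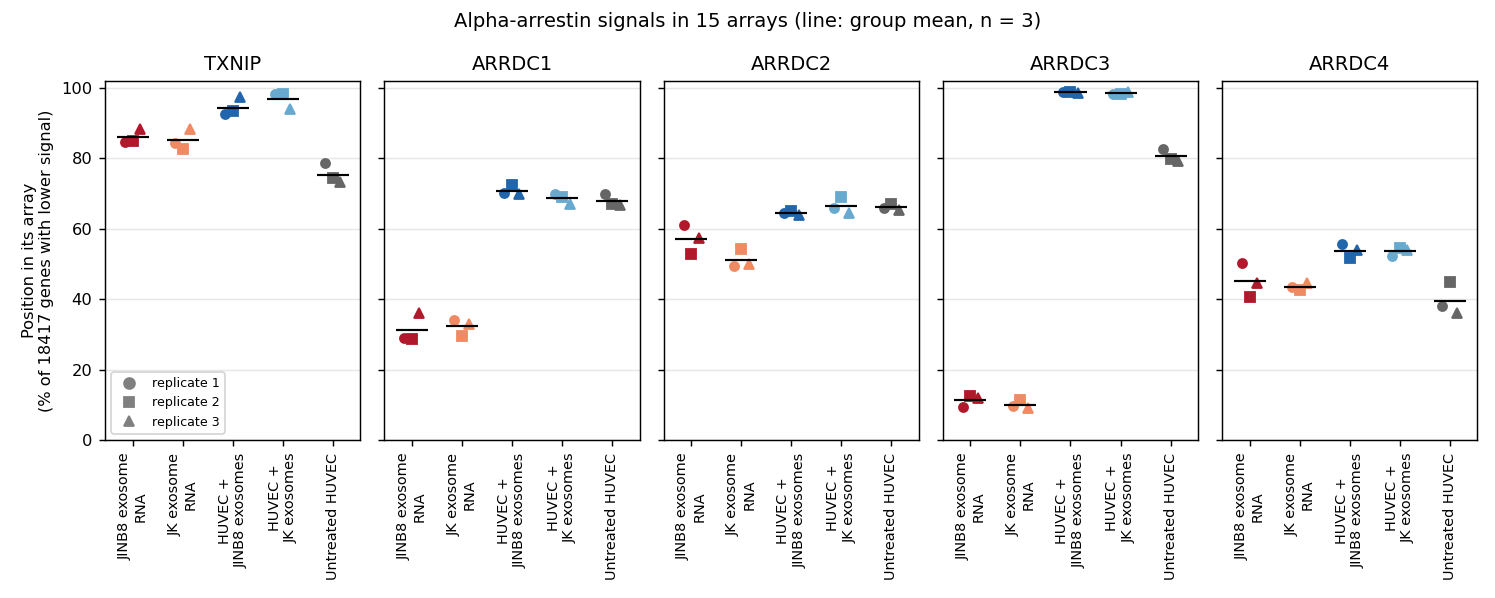
Position of each alpha-arrestin in each of the 15 arrays, as the percent of 18417 genes with lower signal, with symbols for replicates and a line at the group mean (n = 3). ARRDC3 spans the axis, near 10% in exosome RNA and near 99% in treated HUVEC, while ARRDC2 stays between 49.4% and 69.0%.

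Profiles over the 15 arrays were compared by the root mean square difference of quantile-normalized values centred per gene. The genes most like TXNIP were GIMAP8, ADHFE1 and SLC2A3, a glucose transporter, at 0.33, 0.35 and 0.38 (log2), where the median gene differed by 1.07. BMP4, a secreted growth factor of the TGF-beta superfamily, was closest to ARRDC3 at 0.14, followed by WSB1 at 0.35 and EXOC6 at 0.37, where the median was 2.68. COPS5, SPATA6 and CRTAP were closest to ARRDC1 (0.07 to 0.09), DHX30, PMPCA and CSK to ARRDC2 (0.10 to 0.11) and MEIOB, ZNF219 and RGS21 to ARRDC4 (0.12 to 0.13). Within the family ARRDC2 and ARRDC4 were closest, at 0.32, and TXNIP lay nearer to ARRDC4, at 0.57, than to ARRDC3, at 2.20. This measure depends on how widely a gene varies. The SD of the profile was 0.30 for ARRDC2, 0.29 for ARRDC4, 0.80 for TXNIP and 2.66 for ARRDC3. A small difference between genes that vary little is therefore no sign of a shared pattern.

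Genes that work with alpha-arrestins were read from 10 lists written with earlier results of these data known. Values are relative to the array-wide shift, on the quantile-normalized scale, for JK-treated over untreated HUVEC, where 26.2% of all genes rose and 22.4% fell (limma adjusted p under 0.05) and the median gene moved by 0.02 on the log2 scale. As deposited, SLC2A1, SLC2A3 and PDK4 are the only genes of those named as risen below that also lay above untreated HUVEC. The counts with JINB8 exosomes share the untreated arrays and follow each JK count, and a named gene's value is that with JK exosomes unless JINB8 is stated. Of the 30 genes named by the rule, 30 kept their direction and passed with JK exosomes without replicate 3 of both treated groups. They were picked by their p in the fit with all arrays, so passing again on part of these arrays is no independent support. In that setting 13 of the 40 list counts changed, by 2 genes at most.

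Of the transcription factors around MondoA and ChREBP, 6 of 11 rose and 1 fell with JK exosomes, with a list median of 0.25 (7 and 1 with JINB8). MXI1 rose by 0.49 ± 0.09 and MXD4 by 0.46 ± 0.08 (SE, limma adjusted p = 0.00136 and 0.000936), both partners of MAX that repress transcription. MLXIPL, which encodes ChREBP, rose by 0.37 ± 0.09 (adjusted p = 0.00573), and MLXIP, which encodes MondoA, had a log2 change of -0.12 ± 0.11 (adjusted p = 0.401). With JINB8 exosomes MLXIP rose by 0.29 ± 0.11 (SE, limma adjusted p = 0.0439), a call that was lost with cyclic loess (adjusted p = 0.0986) and on leaving out all but 1 of the 6 single arrays (adjusted p up to 0.136). Its direct log2 difference between treated groups, JINB8 minus JK, was 0.44 ± 0.12 with no overlap (SE, deposited values, limma adjusted p = 0.28). Without replicate 3 of both treated groups MLXIP stood at 0.36 with JINB8 and -0.23 with JK exosomes against untreated cells. Between the treated groups it stood at 0.64. Each of these passed, but the arrays left out were picked after their profiles were seen, so the calls are not given as evidence. With all arrays and median centring MLXIP stood at 0.69 with JINB8 exosomes, which passed, and at 0.20 with JK exosomes, which did not. Its direction with JK exosomes thus depended on the scaling. MLXIP lies outside the naming rule and was named after its value was seen. Of glucose transporters and hexokinases 3 of 11 rose and 3 fell, with a median of -0.07 (3 and 4 with JINB8). SLC2A1, the transporter GLUT1 that TXNIP removes from the surface, rose by 2.73 ± 0.13 (SE, limma adjusted p = 6.89e-08) and SLC2A3 by 1.89 ± 0.08 (adjusted p = 2.81e-08), whereas SLC2A6 fell by 1.14 ± 0.08 (adjusted p = 9.39e-07).

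Thioredoxins, reductases and peroxiredoxins mostly fell, 5 of 9 against 1 that rose, with a median of -0.30 (7 and 1 with JINB8). TXN, the thioredoxin that TXNIP binds, fell by 0.49 ± 0.10, PRDX1 by 0.48 ± 0.07 and PRDX3 by 0.34 ± 0.08 (SE, limma adjusted p of 0.00232, 0.000279 and 0.00415). With median centring none of these 3 passed, and PRDX1 turned to 0.01. In exosome RNA PRDX1 was higher in JINB8 than in JK by 0.57 ± 0.11 (SE, limma adjusted p = 0.0416), the only member of the 10 lists to pass there. The test of the JINB8 minus JK change in exosome RNA against that in HUVEC was passed in the 10 lists by PRDX2 alone, at 0.53 ± 0.11 (SE, limma adjusted p = 0.0383), and was not passed by PRDX1, at 0.56 ± 0.15 (adjusted p = 0.094), or TXN, at 0.40 ± 0.11 (adjusted p = 0.104). Neither PRDX1 in exosome RNA nor PRDX2 in this test passed after quantile normalization (limma adjusted p = 0.067 and 0.0793), nor with median centring (0.0595 and 0.0843). PRDX1 and PRDX2 each kept their direction and lost the call on leaving out most single arrays (adjusted p up to 0.2 for PRDX1 and 0.111 for PRDX2). In the comparison of JINB8-treated with JK-treated HUVEC 0 members of the lists passed by limma with all arrays.

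Of the NEDD4-family ligases that alpha-arrestins recruit, 5 of 9 fell and 1 rose, with a median of -0.21 (4 and 2 with JINB8). NEDD4L fell by 1.09 ± 0.11, SMURF1 by 0.54 ± 0.07 and HECW1 by 0.45 ± 0.09 (SE, limma adjusted p of 1.43e-05, 9.38e-05 and 0.00129). HECW1 had a deposited mean of 3.54 with JK exosomes, where the T cell markers averaged 3.53 to 3.64 per array. Of ESCRT-I subunits and budding partners 4 of 11 fell and 2 rose, with a median of -0.27 (5 and 2 with JINB8). TSG101, the partner of ARRDC1, fell by 0.60 ± 0.09, VPS37B by 0.71 ± 0.08 and VPS37C by 0.56 ± 0.09 (SE, limma adjusted p of 0.00024, 2.41e-05 and 0.000358). Of other genes with an arrestin fold 3 of 6 rose and 0 fell, with a median of 0.24 (3 and 0 with JINB8). With JK exosomes they were VPS26A, a retromer subunit, at 0.40 ± 0.08, ARRB1, beta-arrestin 1, at 0.28 ± 0.07, and SAG, the retinal arrestin, at 0.31 ± 0.10 (SE, limma adjusted p of 0.00155, 0.00883 and 0.0264). With JINB8 exosomes they were VPS26A at 0.25 ± 0.08, ARRB1 at 0.28 ± 0.07 and VPS26B, another retromer subunit, at 0.40 ± 0.09 (SE, limma adjusted p of 0.0205, 0.00774 and 0.00353). SAG had 0.18 ± 0.10 with JINB8 exosomes (adjusted p = 0.177), and VPS26B, named after its value was seen, had 0.19 ± 0.09 with JK exosomes (adjusted p = 0.0986). Without JINB8 replicate 3 SAG had 0.29 with JINB8 exosomes and passed (adjusted p = 0.029). With JK exosomes the SAG call was lost with median centring and with cyclic loess (limma adjusted p = 0.106 and 0.102). It was also lost without untreated replicate 1, untreated replicate 3 or JK replicate 1 (limma adjusted p = 0.0872, 0.0551 and 0.0914). SAG was among the dimmest 40% of genes and dropped out of the setting without them. Its deposited mean was 3.65 with JINB8 and 3.77 with JK exosomes. The T cell markers averaged 3.49 to 3.62 and 3.53 to 3.64 per array in these groups, so SAG may lie at background.

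Of reported cargoes 2 of 7 rose and 1 fell, with a median of 0.03 (2 and 1 with JINB8). F2R, the thrombin receptor, fell by 0.65 ± 0.10, while INSR, the insulin receptor, rose by 0.62 ± 0.10 and NOTCH1 by 0.61 ± 0.08 (SE, limma adjusted p of 0.000354, 0.000427 and 6.15e-05). Of NLRP3 inflammasome genes, which TXNIP has been linked to, 4 of 7 fell and 0 rose, with a median of -0.42 (4 and 1 with JINB8). IL1B fell by 1.21 ± 0.14, CASP1 by 0.80 ± 0.14 and PYCARD by 0.59 ± 0.13 (SE, limma adjusted p of 3.01e-05, 0.000634 and 0.00305). With JK exosomes IL1B and CASP1 had deposited means of 3.48 and 2.92, below the T cell markers at 3.53 to 3.64 per array.

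FOXO factors and their targets had 6 of 13 that rose and 2 that fell, with a median of 0.25 (7 and 2 with JINB8). PDK4, a kinase that holds back pyruvate oxidation, rose by 2.21 ± 0.10 and FOXO4 by 0.89 ± 0.07, whereas KLF6 fell by 1.13 ± 0.09 (SE, limma adjusted p of 2.91e-08, 3.57e-06 and 3.75e-06). Of the glucocorticoid receptor and its targets 5 of 9 fell and 1 rose, with a median of -0.38 (4 and 1 with JINB8). SGK1 fell by 2.01 ± 0.17 and the receptor gene NR3C1 fell by 1.51 ± 0.11, and TSC22D3 rose by 0.64 ± 0.10 (SE, limma adjusted p of 3.26e-06, 1.35e-06 and 0.000255).

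**Figure D5:**
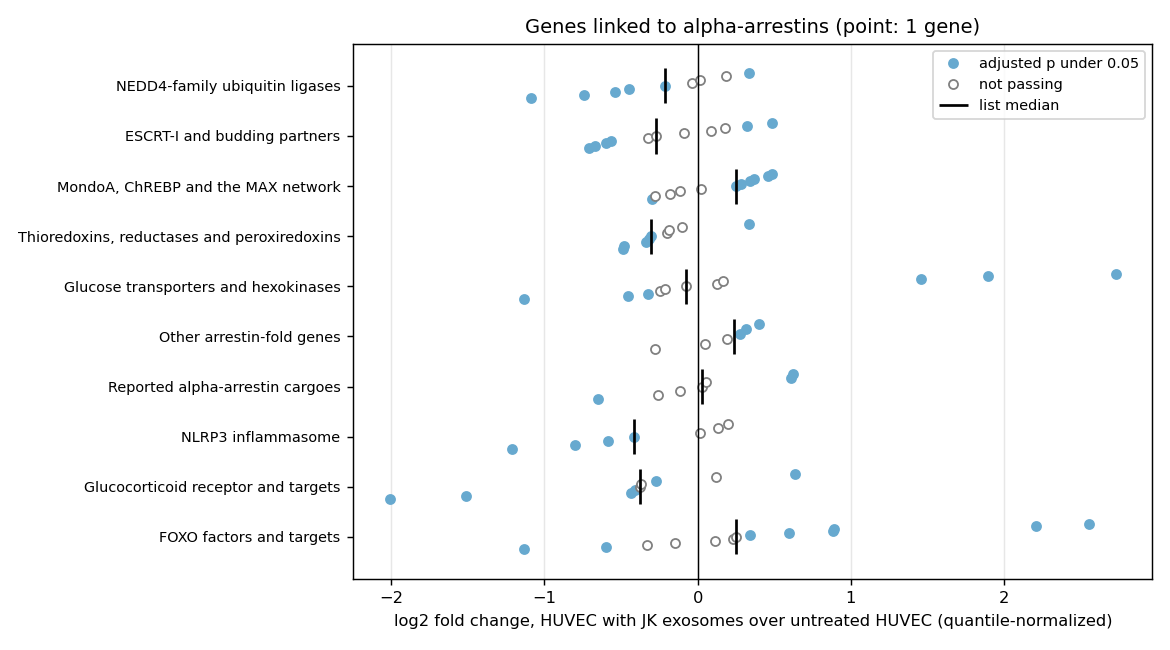
Log2 fold change of each measured gene of the 10 lists in HUVEC with JK exosomes over untreated HUVEC (quantile-normalized), filled where limma's adjusted p was under 0.05, with a bar at each list's median. SLC2A1 at 2.73 and SLC2A3 at 1.89 lie far to the right among glucose transporters, whose list median is -0.07.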

How the data were processed

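The deposited values are log2 signals of the authors' series table, made with Affymetrix Expression Console per the submitters' processing notes. The sources used here give neither its version nor its settings, nor which arrays were normalized with each other, and the table has no detection calls. Of 33297 probesets, 19460 had 1 gene symbol in the platform annotation, 1754 several and 12083 none listed. For genes with several probesets the brightest on average was kept, giving 18417 genes. Sequences come from RefSeq.

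Groups came from the labels. Models were fitted with limma 3.58.1 in R 4.3.3 (lmFit, eBayes) over all genes with Benjamini-Hochberg adjustment at 0.05, and were tested on simulated data. HUVEC contrasts used the 9 HUVEC arrays, vesicle RNA its 6 arrays, and vesicle against cell a fit of 12 arrays. Versus untreated HUVEC, values were quantile-normalized over the 9 HUVEC arrays. Precision is limited by the number of arrays.

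The members and lists were chosen with earlier results of these data known. The text names the 5 members, CD47, up to 3 passing genes with the smallest p per list and comparison, and the 3 nearest profiles per member. Lists for vesicle against cell RNA are not reported.

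Same-numbered arrays had correlations of deviations between -0.45 and 0.35, not every one above 0.1, and the samples were not treated as paired. With 3 arrays per group this check cannot exclude that same-numbered arrays shared a culture or a day. Alternatives were other scalings, leaving out the dimmest 40% of genes, a variance trend with robust fit, a replicate block, probeset means, other array sets and leaving out each array. Leaving out replicate 3 of both treated groups was chosen after seeing the data.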

Additional observations from a re-analysis of the deposited data

Results flagged for a closer look

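PRDX2, a peroxiredoxin of the thioredoxin list, had a JINB8 minus JK change that differed between exosome RNA and HUVEC by a test of that difference, at 0.53 ± 0.11 on the log2 scale (SE, limma adjusted p = 0.0383). In exosome RNA it averaged 6.32 ± 0.14 for JINB8 and 6.01 ± 0.02 for JK vesicles, and in HUVEC 6.02 ± 0.02 with JINB8 and 6.24 ± 0.04 with JK exosomes (deposited log2, SD, n = 3 each). The call was lost after quantile normalization and with median centring. None of the 5 alpha-arrestins passed this test, and groups of 3 arrays were not tested for single outlying samples.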

How the results depend on the processing

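Of 508 recomputed values of the members, 481 kept their call or moved by less than the spread, 23 moved, 2 newly passed and 2 reversed. Tested values that passed in neither fit count as kept even where their sign changed. One such gene was ARRDC4 between JINB8-treated and JK-treated HUVEC, at -0.08 to 0.04 on leaving out 1 array. Of 550 recomputed values of list genes, 494 kept their call, 37 lost it, 5 newly passed and 14 reversed. Versus untreated HUVEC, the deposited values gave log2 fold changes with JINB8 and JK exosomes of 0.44 and 1.06 for TXNIP, -1.46 and -1.58 for ARRDC1, -1.80 and -1.63 for ARRDC2, 1.45 and 1.29 for ARRDC3 and -1.08 and -1.05 for ARRDC4, with 18286 and 18319 genes past the threshold, where 9074 and 8950 passed after quantile normalization. They reversed MXD4 (-1.12), MXI1 (-1.28), MLXIPL (-1.59), VPS26A (-1.12), ARRB1 (-1.08), SAG (-1.53), NOTCH1 (-0.89), INSR (-1.05), TSC22D3 (-1.06) and FOXO4 (-0.87) with JK exosomes, and MLXIP (-1.15), VPS26B (-1.10) and SAG (-1.64) with JINB8 exosomes, since the deposited median gene lies below 0. Median centring gave 0.38 and 0.20 for ARRDC1, 0.042 and 0.15 for ARRDC2 and 3.28 and 3.07 for ARRDC3, and 0.013 for PRDX1 with JK exosomes. Quantile normalization over 15 arrays gave 2.31 and 2.18 for ARRDC3, and 2.02 for TXNIP with JK exosomes.

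Between JINB8-treated and JK-treated HUVEC, 8 genes passed with median centring, 8 without the dimmest genes and 23 with a variance trend and robust fit, against 0, and 0 to 3 on leaving out 1 array, with 3 without JK replicate 3. Without replicate 3 of both treated groups 300 genes passed and TXNIP was at -1.36, and in the interaction 1037 genes passed and TXNIP was at 1.42. That interaction called 145 genes, 218 without the dimmest genes, 70 with the replicate block, 57 without JK-treated replicate 2 and 338 without JK-treated replicate 3. In exosome RNA, leaving out 1 array gave 54 to 100 genes, against 125 with all 6, with 54 without JK exosome RNA replicate 3. For vesicle against treated HUVEC, JINB8 and JK, quantile normalization gave -0.84 and -1.37 for TXNIP and -5.48 and -5.42 for ARRDC3, median centring -6.50 and -6.33 for ARRDC3, and 10381 and 10372 genes passed without the dimmest ones. The replicate block changed no call of a member, and with it PRDX1 in exosome RNA and PRDX2 in the interaction no longer passed (limma adjusted p = 0.053 and 0.0724), nor did MLXIP with JINB8 exosomes (0.0694). Except where a scaling moves the median gene or fewer genes or arrays are used, the cause was not tested. Without detection calls, low signals such as ARRDC3 in exosome RNA cannot be set against background.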

Other observations

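ARRDC1-AS1, an RNA listed under its own symbol and antisense to ARRDC1, was named after its values were seen. Its quantile-normalized log2 signal averaged 7.01 ± 0.07 with JINB8 exosomes and 7.04 ± 0.12 with JK exosomes, against 6.33 ± 0.25 in untreated HUVEC (SD, n = 3 each). The log2 fold changes were 0.68 ± 0.12 and 0.71 ± 0.12 (SE, limma adjusted p = 0.000765 and 0.000616), while those of ARRDC1 were 0.19 and 0.05. Of all genes 49.3% and 48.6% passed in these comparisons. Because ARRDC1-AS1 was picked with these values in view, its p-values are not given as evidence. As deposited, each treated array lay below each untreated one, as for most genes. The genes have probesets of their own, and whether the difference between the pair of genes holds was not tested.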
